A study of Mus musculus with 47 samples.

Results

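The Hox genes were followed through 47 mouse intestinal RNA-seq libraries in 17 groups. A gene was taken as a member if its symbol in the deposited count table was Hox, a cluster letter from a to d, and a number, which gave 39 of 24062 genes. The members lay in 4 clusters on the mouse genome build GRCm38 (mm10): 11 Hoxa genes on chromosome 6, 10 Hoxb genes on chromosome 11 (chr11:96194316-96368256), 9 Hoxc genes on chromosome 15 (chr15:102921103-103036852) and 9 Hoxd genes on chromosome 2 (chr2:74668310-74765142). The last 3 covered 174, 116 and 96.8 kb. Antisense transcripts, microRNA genes and the neighbouring Evx genes were not members.

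Hox genes encode homeodomain transcription factors that specify position along the head-to-tail axis of the embryo. Within a cluster the genes lie in the order in which they are expressed along that axis, low numbers anterior and high numbers posterior, and the adult gut keeps part of this pattern in its muscle, connective tissue and epithelium. Their proteins bind DNA together with PBX and MEIS cofactors. Retinoic acid and the caudal factors CDX1 and CDX2 act upstream of them, Polycomb complexes keep the clusters silent and trithorax complexes keep them active.

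Tissue came from mice of 15 to 19 weeks, and the labels called it intestinal without naming the region. In 4 backgrounds the study compared mucosa of wild-type mice, mucosa of mice with the Min allele of the tumour suppressor gene Apc (Min mucosa) and adenomas of Min mice, with 3 libraries in each group. The backgrounds were C57BL/6 (B6), a consomic B6 strain whose chromosome 5 comes from the wild-derived PWD strain (C5), the F1 cross of B6 with that strain (C5F1) and the F1 cross of B6 with PWD (B6xPWD). Wild-type mucosa of PWD/Ph mice made a further group of 3. Organoids, epithelial cultures grown from intestinal tissue, came from Min mice of the B6 and C5 backgrounds and were either untreated or treated with 5-aza-cytidine (AZA), an inhibitor of DNA methylation, with 2 libraries in each of these 4 groups. None of the 4 clusters lies on the substituted chromosome. Nothing in the labels says that replicates were separate animals or cultures, so the p-values measure the spread between these libraries.

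Gene counts summed to between 2726505 and 20070696 per tissue library (median 5831947) and between 4389898 and 8373764 per organoid library (median 6386046). The deepest library was B6 adenoma 1. The 45S ribosomal RNA gene Rn45s took 16.4% to 72.7% of the gene counts in tissue and 0.760% to 1.61% in organoids. Levels are given as CPM, counts per 1000000 of the library size after TMM scaling. A count of 0 in a single library allows a level of up to 0.117 to 2.53 CPM in tissue (3 counts of the scaled library size), and intervals and limits of this kind cover counting error only. In bulk tissue, fewer cells of a type and less RNA per cell cannot be told apart.

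RefSeq promoter windows, the 250 bases before a transcription start on GRCm38.p6, were present for 22 of the 39 members in 24 windows. Those of Hoxa5 and Hoxa9 are shown because these genes were higher in adenoma (below), and that of Hoxb8 because it is the nearest neighbour of Hoxb9 in the set of windows. Hoxa5 starts before chr6:52204588-52204837 (minus strand), Hoxa9 before chr6:52227371-52227620 (minus strand) and Hoxb8 after chr11:96281655-96281904 (plus strand). Capitals mark the letters TTTATNG, a form of the site bound by CDX and posterior HOX proteins, and TGATNNAT, a form of the joint PBX and HOX site, on either strand.
Hoxa5: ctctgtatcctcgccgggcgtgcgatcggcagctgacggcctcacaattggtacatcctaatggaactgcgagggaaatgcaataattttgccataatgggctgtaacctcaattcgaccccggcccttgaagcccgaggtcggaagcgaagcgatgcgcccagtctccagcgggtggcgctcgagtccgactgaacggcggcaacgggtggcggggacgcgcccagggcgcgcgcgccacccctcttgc
Hoxa9: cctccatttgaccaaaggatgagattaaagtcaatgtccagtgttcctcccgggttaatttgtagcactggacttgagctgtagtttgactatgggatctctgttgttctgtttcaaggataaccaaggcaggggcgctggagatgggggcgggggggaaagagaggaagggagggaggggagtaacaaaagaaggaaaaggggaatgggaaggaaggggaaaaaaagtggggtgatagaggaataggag
Hoxb8: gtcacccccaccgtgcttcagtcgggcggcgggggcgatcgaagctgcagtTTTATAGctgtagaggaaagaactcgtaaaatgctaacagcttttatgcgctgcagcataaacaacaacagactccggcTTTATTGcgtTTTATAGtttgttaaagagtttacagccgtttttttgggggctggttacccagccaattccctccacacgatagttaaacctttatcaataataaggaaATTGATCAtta
The Hoxb8 window held 3 matches to TTTATNG, at 199, 120 and 110 bases before the start, and 1 to TGATNNAT at 11 bases. Across 32851 RefSeq promoter windows of the same length, 9.81% held TTTATNG, 7.68% held TGATNNAT and 13.8% held CTTTGA, the core of the TCF and LEF site through which Wnt signalling acts. Among the 24 Hox windows, 2 held TTTATNG, 4 held TGATNNAT and 3 held CTTTGA. None of the 3 motifs was in the windows of Hoxa3, Hoxa5, Hoxa7 or Hoxa9, and those of Hoxa3 and Hoxa7 overlap an exon of the same gene. The Hoxa9 window overlaps no exon of Hoxa9 but lies inside the annotated span of the gene (chr6:52223100-52231089), before an internal start. The windows differed in CpG sites, with 18 in Hoxa3, 28 in Hoxa5, 7 in Hoxa7, 3 in Hoxa9 and 12 in Hoxb8. A match or its absence describes the letters only.

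Of the 39 members, 29 reached the floor of at least 10 counts in 1 library or a group mean of 0.5 CPM. A further 9 had counts but stayed below both limits, and 1, Hoxa13, had no count in any of the 47 libraries. The 9 below the floor were Hoxb1, Hoxb13, Hoxc10, Hoxc11, Hoxc12, Hoxd1, Hoxd3, Hoxd10 and Hoxd12. Their highest counts in a library were 7, 2, 3, 2, 1, 6, 6, 4 and 3 in that order. Undetected or unexpressed members were therefore 3 of 8 anterior genes (numbers 1 to 3), 0 of 15 central genes (4 to 8) and 7 of 16 posterior genes (9 to 13). By cluster they were 1 Hoxa, 2 Hoxb, 3 Hoxc and 4 Hoxd genes. 6 members had no count in tissue: Hoxa13, Hoxb1, Hoxc11, Hoxc13, Hoxd1 and Hoxd12.

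**Figure D1:**
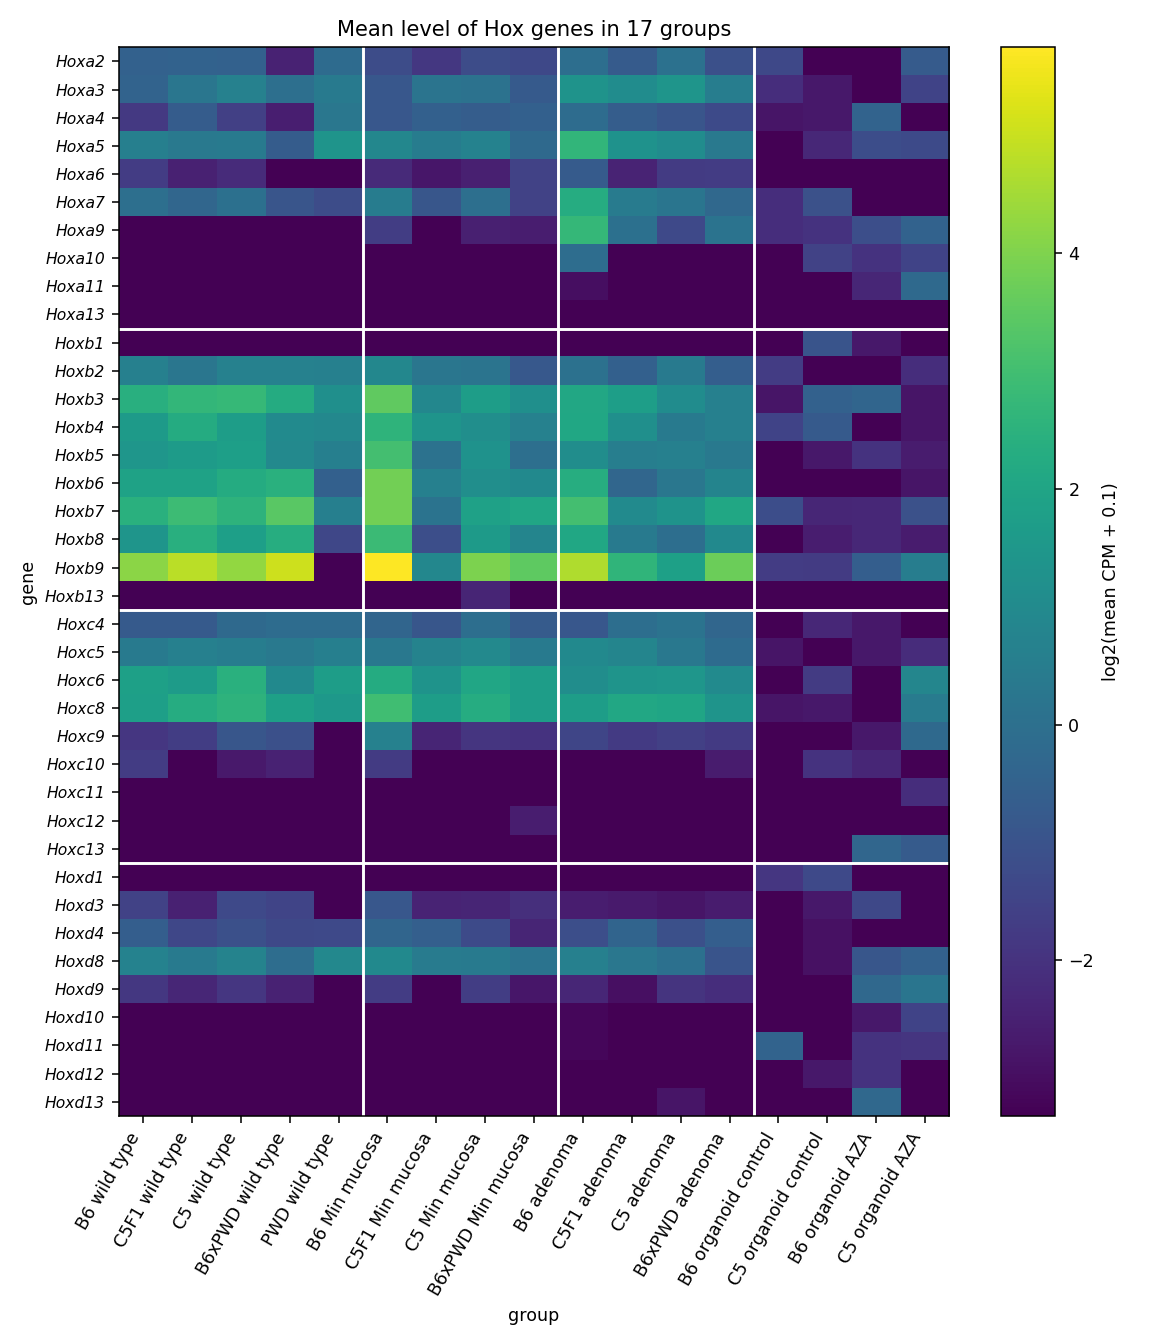
Mean level of Hox genes (rows, in cluster order) in each of the 17 groups (columns), coloured as log2(mean CPM + 0.1). White lines separate the clusters and the sample kinds. Tissue groups share a block of central Hoxb and Hoxc genes, Hoxa9 appears almost only in adenoma among the tissue groups, and the organoid columns hold scattered single genes.

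Tissue carried a restricted Hox set in which Hoxb9 had the highest mean, a mean carried by part of the libraries. Levels between genes are compared per kb of exon. In Min mucosa the mean was 7.97 CPM per kb for Hoxb9, 4.36 for Hoxb7, 3.69 for Hoxb6, 2.54 for Hoxc8, 2.28 for Hoxc6, 0.703 for Hoxa5 and 0.492 for Hoxd8. In wild-type mucosa the means were 7.67 CPM per kb for Hoxb9, 4.69 for Hoxb7, 2.16 for Hoxc8 and 2.14 for Hoxc6. In adenoma the means were 4.64 CPM per kb for Hoxb9, 3.23 for Hoxb7 and 1.85 for Hoxc8. By medians per kb, Hoxb9 stood at 1.24 in Min mucosa, below Hoxc6 (2.39), Hoxc8 (2.21) and Hoxb7 (1.33), at 1.32 in wild-type mucosa, below Hoxc8 (2.10) and Hoxb7 (2.01), and at 2.28 in adenoma. By means, the leading gene of each cluster was Hoxa5, Hoxb9, Hoxc8 and Hoxd8. Beyond number 9 every cluster was at or near 0 in tissue, apart from Hoxa10 in the B6 adenomas (group mean 0.856 CPM).

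**Figure D2:**
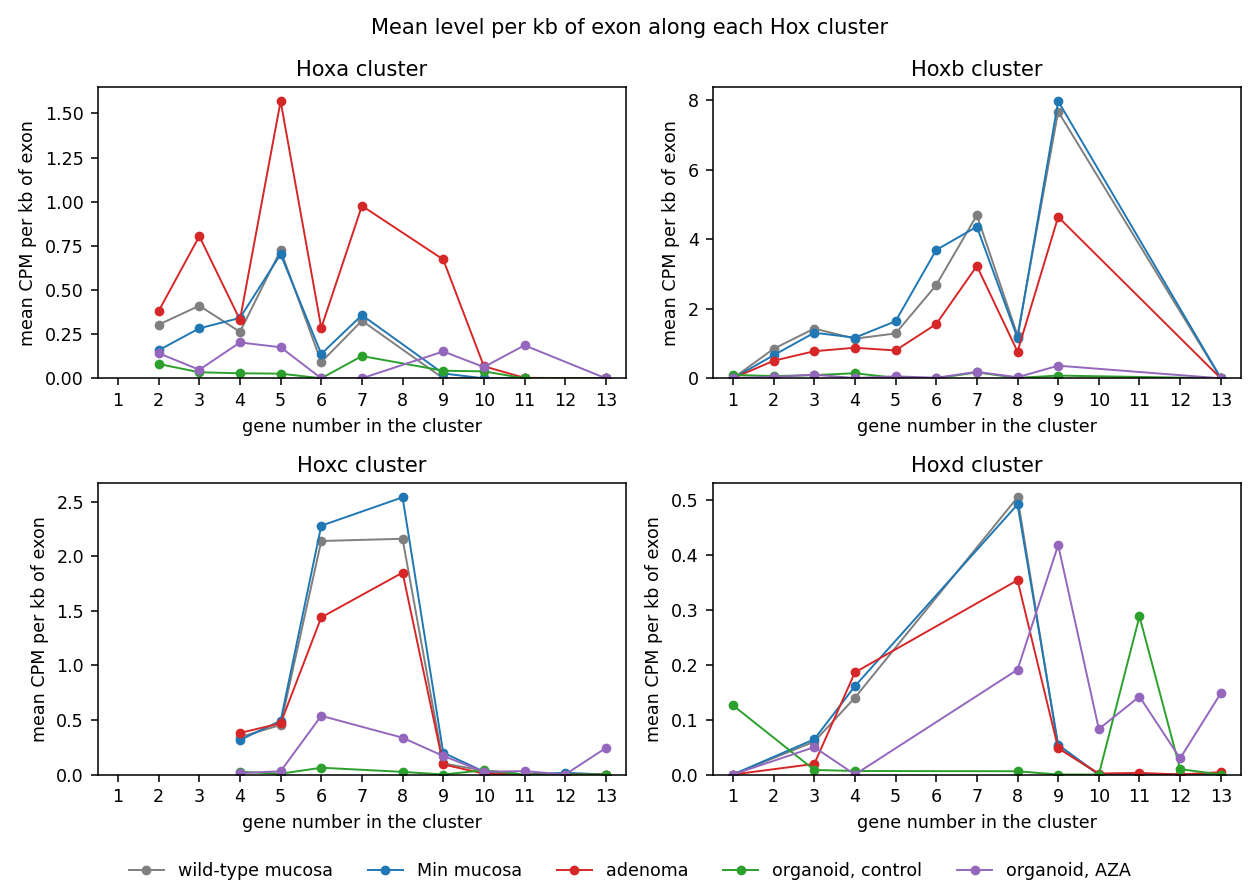
Mean CPM per kb of exon (vertical axis, its own linear scale in each panel) against gene number along each Hox cluster (horizontal axis), with a line for wild-type mucosa, Min mucosa, adenoma, control organoids and AZA organoids. Hoxb9 reached 7.97 in Min mucosa and 4.64 in adenoma, and Hoxa5 reached 1.57 in adenoma against 0.703 in Min mucosa.

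The 39 genes together summed to 11.9 to 139 CPM in wild-type mucosa (median 41.7), 15.1 to 165 CPM in Min mucosa (median 29.2) and 10.3 to 149.6 CPM in adenoma (median 38.0). The 3 ranges overlap almost fully. Organoids summed to 1.56 to 20.4 CPM (median 4.57). Of the members, 16 had enough counts to be tested across tissue, 3 in organoids and 20 across both. The tissue set was Hoxa3, Hoxa5, Hoxa7, Hoxa9, Hoxb2 to Hoxb9, Hoxc5, Hoxc6, Hoxc8 and Hoxd8. The other 13 members above the floor were too low for the tissue test, among them Hoxa2, Hoxa4, Hoxa6, Hoxa10, Hoxa11, Hoxc4, Hoxc9, Hoxc13, Hoxd4, Hoxd9, Hoxd11 and Hoxd13.

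In adenoma, the tested Hoxa genes were called higher, and no gene of the other clusters was. Against Min mucosa, averaged over the 4 backgrounds, 4 of 16 tested members were higher and 1 was lower at an edgeR adjusted p under 0.05. Of all 13657 genes tested, 45.2% were called in this comparison, 23.7% higher and 21.5% lower, so the members' share of calls was below that of all genes. All 4 tested Hoxa genes were higher, 0 of 8 Hoxb genes were called, Hoxc6 was the only 1 of 3 Hoxc genes called and Hoxd8 was not called. Of the 4 Hoxa genes, Hoxa3, Hoxa7 and Hoxa9 passed the filter on low counts only through adenoma libraries. That all 4 were higher is therefore partly set by the filter, and the other 7 Hoxa genes were not tested. The 8 Hoxb estimates were all negative, from -0.24 (Hoxb7) to -0.82 (Hoxb6) on the log2 scale, but Hoxb5, Hoxb7 and Hoxb9 were higher in adenoma in 7 of 12 same-numbered pairs. The Hoxb9 estimate turned to 0.76 without B6xPWD Min mucosa 1 and to 0.27 without C5 Min mucosa 2. The median log2 change was -0.40 over the 16 members and 0.01 over all genes tested.

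Hoxa9, a posterior-type factor known for its part in leukaemia and in limb and axial patterning, was found almost only in adenomas among the tissue libraries. Its gene lies at chr6:52223100-52231089 on the minus strand, and its exons overlap no other annotated gene. It had 413 counts over the 12 adenomas, 6 over the 12 Min mucosa libraries and 0 over the 15 wild-type libraries. The B6 adenomas had 341, 22 and 6 counts, the C5F1 adenomas 1, 21 and 4, the C5 adenomas 4, 2 and 0, and the B6xPWD adenomas 3, 3 and 6. In Min mucosa the B6 libraries held 2, 1 and 1 counts, 1 C5 and 1 B6xPWD library held 1 each, and the others held 0. By CPM, 11 of 12 adenomas lay above all 27 mucosa libraries, but this order is limited by the few counts. C5F1 adenoma 1 lay above with 1 count, and B6 Min mucosa 1 below with 2. A single mucosa library at 0 counts allows up to 0.352 to 2.53 CPM, which leaves the order unresolved for adenomas at such levels.

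As levels, Hoxa9 reached 13.3, 4.69 and 1.46 CPM in the B6 adenomas and 0.328, 1.79 and 0.618 CPM in those of C5F1. The C5 adenomas had 0.525, 0.372 and 0 CPM, and the B6xPWD adenomas 0.571, 0.641 and 1.76 CPM. The highest mucosa value was 0.287 CPM, in B6 Min mucosa. Adenoma and Min mucosa did not overlap in 3 of 4 backgrounds, with C5 the exception and within the same counting limit. The mean log2 change was 2.02 ± 0.35 (SE; edgeR adjusted p = 7.4e-05), a fitted value that depends on the prior count where a group is at or near 0. By pooled counts the adenoma level was 49.8 times that of Min mucosa in B6 (369 against 4 counts, 95% counting interval 19.3 to 184; 341 of the 369 were in B6 adenoma 1), 6.6 times in C5 (6 against 1, 0.801 to 304) and 14.6 times in B6xPWD (12 against 1, 2.16 to 623). In C5F1, where Min mucosa had 0 counts, it was at least 6.72-fold higher, taking 3 counts over the group as the limit. Against wild-type mucosa, with 0 counts in each background, the lower bounds were 45.9-fold for B6, 7.15-fold for C5F1, 1.56-fold for C5 and 3.45-fold for B6xPWD. The 15 wild-type libraries together allow a level of up to 0.0441 CPM, and singly up to 0.352 to 1.88 CPM. Hoxa9 passed the filter on low counts only through its adenoma libraries.

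Because the adenoma libraries let Hoxa9 pass the filter, its p-values in every tissue comparison, above and below, describe a member picked by its high group. Hoxa3 and Hoxa7 also passed the filter only through adenoma libraries, so their p-values in the tissue comparisons carry the same limit. Hoxa5 did not depend on adenoma libraries to pass. Counts of called members that include Hoxa3, Hoxa7 or Hoxa9 share this limit. Without B6 adenoma 1, the deepest library, left out of the pooled counts after the data were seen, the pooled ratio in B6 was 14.8 (28 against 4 counts, 95% counting interval 5.17 to 58.0), the bound against B6 wild-type mucosa was 13.6-fold, and the mean log2 change over backgrounds was 1.67. Averaged over the 3 backgrounds other than B6, an alternative added after the data were seen, the log2 change was 1.47. Over 32 alternatives, 1 of them without the filter, the edgeR or DESeq2 adjusted p ran from 2.08e-06 to 0.00237.

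Hoxa3, an anterior-group factor (chr6:52169062-52213336, minus strand), was higher in adenoma in 12 of 12 pairs, a pair being the same-numbered adenoma and Min mucosa libraries of a background. It ranged from 0.983 to 3.67 CPM in the 12 adenomas (median 1.87) and from 0.260 to 1.23 CPM in the 12 Min mucosa libraries (median 0.817). The log2 change was 1.17 ± 0.23 (SE; edgeR adjusted p = 1.1e-04). Hoxa3 passed the filter on low counts only through adenoma libraries, so this p describes a member picked by its high group. Wild-type mucosa spanned 0 to 2.01 CPM (median 0.938) and overlapped the adenomas. Of its exon sequence, 29.5% overlaps other annotated genes, among them the antisense RNAs Hoxaas2 and Hoxaas3. The strand setting of the counting was not given in the sources used here, so reads of these partners cannot be told apart from those of Hoxa3.

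Hoxa5 and Hoxa7 were at their highest in the B6 adenomas. Hoxa5, a central gene active in gut and lung mesenchyme (chr6:52201754-52204587), was at 6.94, 8.74 and 2.91 CPM in the B6 adenomas and 2.29, 0.928 and 1.94 CPM in B6 Min mucosa. Hoxa7 (chr6:52214491-52221854) was at 6.24, 5.76 and 2.42 CPM in the B6 adenomas and 0.717, 1.85 and 1.36 CPM in B6 Min mucosa. In both genes the B6 groups did not overlap. Averaged over backgrounds the log2 change was 0.79 ± 0.29 (SE; edgeR adjusted p = 0.0254) for Hoxa5, higher in 9 of 12 pairs, and 0.87 ± 0.28 (adjusted p = 0.0104) for Hoxa7, higher in 10 of 12. Averaged over the 3 backgrounds other than B6, neither was called, with 0.50 (adjusted p = 0.258) for Hoxa5 and 0.60 (0.118) for Hoxa7. These are the highest of the adjusted p-values over 32 alternatives each, the lowest being 0.00651 and 0.00414. The Hoxa5 call was also lost without B6xPWD adenoma 3, C5F1 adenoma 2 or C5F1 adenoma 3. Hoxa7 shares 28.8% of its exon sequence with antisense Hoxaas3, and Hoxa5 shares none. Hoxa7 also passed the filter on low counts only through adenoma libraries, so its p-values describe a member picked by its high group.

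Hoxc6, a central gene of the trunk (chr15:102998257-103011881, plus strand), was the only member called lower over the 4 backgrounds in the unpaired fit. Its median was 2.41 CPM in adenoma, against 3.77 CPM in Min mucosa, and the adenoma was lower in 11 of 12 pairs. The log2 change was -0.59 ± 0.20 (SE; edgeR adjusted p = 0.0135). The call was lost without C5F1 Min mucosa 2, and over the 3 backgrounds other than B6 (-0.44, adjusted p = 0.135, the highest of 32 alternatives, whose lowest was 0.00346). With same-numbered libraries fitted as pairs, where 52.3% of genes were called, Hoxc8, another central gene, was also lower (-0.42 ± 0.17, edgeR adjusted p = 0.0495, the lowest of its alternatives).

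**Figure D3:**
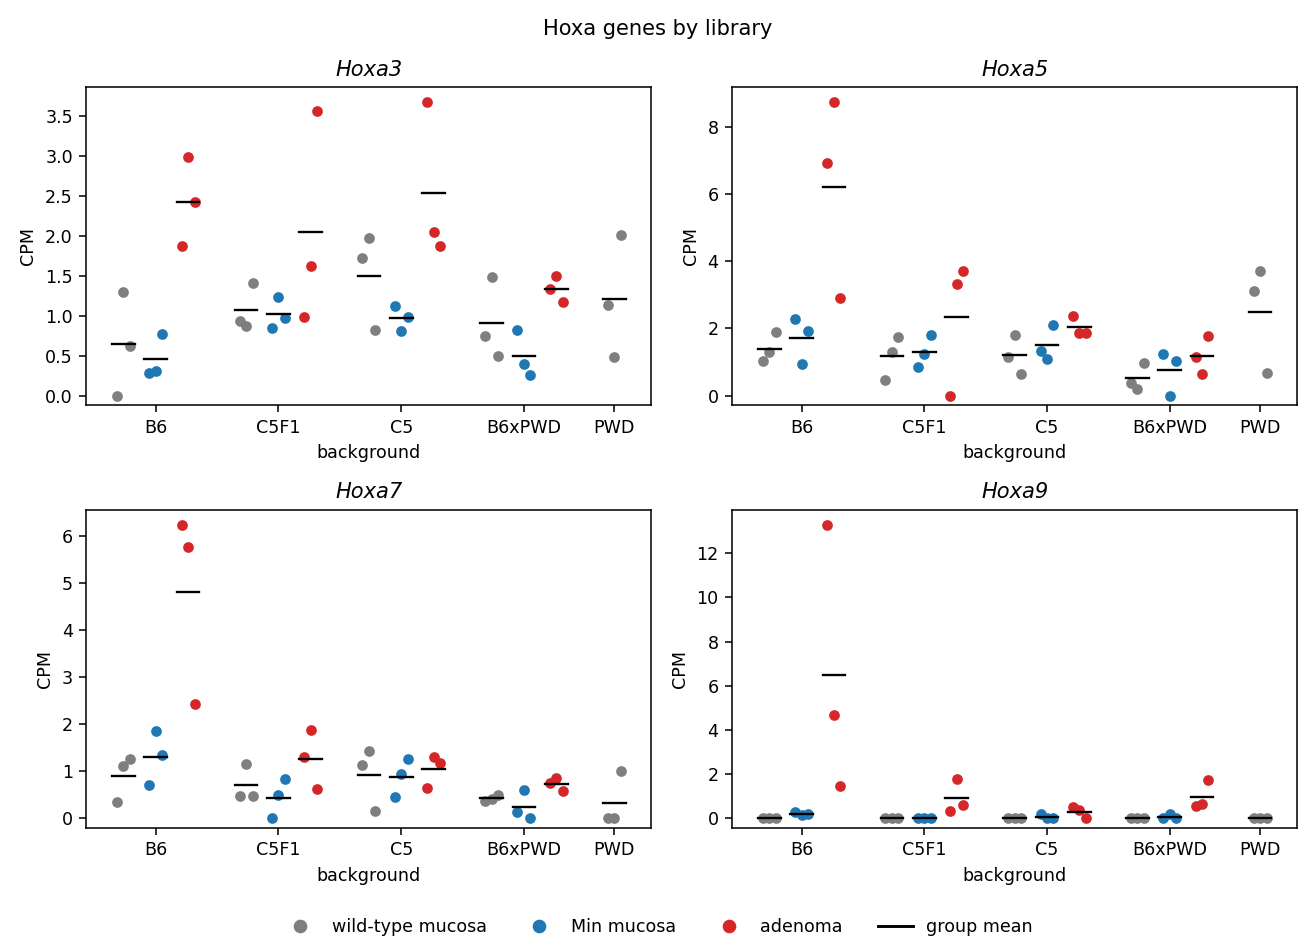
CPM of Hoxa3, Hoxa5, Hoxa7 and Hoxa9 (vertical axes, linear) in each tissue library by background (horizontal axes). Points are libraries, coloured as wild-type mucosa, Min mucosa or adenoma, and black bars are group means of 3 libraries. The B6 adenomas stand highest for Hoxa5, Hoxa7 and Hoxa9, with Hoxa9 at 13.3, 4.69 and 1.46 CPM, while the Hoxa3 group mean is higher in adenoma than in Min mucosa in every background, with overlap in C5F1.

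Within B6 alone the Hoxa genes rose and part of the Hoxb and Hoxc genes fell. Of 16 members, 4 were higher and 2 lower, where 26.7% of all genes tested were called, 13% higher and 13.7% lower. The log2 changes were 3.68 ± 0.65 for Hoxa9 (SE; edgeR adjusted p = 2.5e-04), 1.77 ± 0.46 for Hoxa3 (0.00409), 1.67 ± 0.49 for Hoxa7 (0.0111) and 1.67 ± 0.52 for Hoxa5 (0.0171). The p-values of Hoxa9, Hoxa3 and Hoxa7 carry the limit of the filter given above. Hoxb5, a central gene with a known role in the enteric nervous system, fell from 9.75, 11.4 and 3.29 CPM to 0.858, 1.28 and 4.12 CPM. These ranges overlap, and the log2 change was -1.98 ± 0.63 (edgeR adjusted p = 0.0194). Hoxc6 fell from 5.73, 4.17 and 4.26 CPM to 2.53, 1.71 and 1.94 CPM, with no overlap and a log2 change of -1.04 ± 0.37 (edgeR adjusted p = 0.0369). The median log2 change of the 16 members was -0.78 and that of all genes 0.02. With same-numbered adenoma and Min mucosa libraries fitted as pairs, 11 members were called, the same 4 higher and 7 lower, where 36.2% of genes were called. The added 5 were Hoxb3 (-1.81), Hoxb6 (-1.82), Hoxb8 (-1.57), Hoxb9 (-1.96) and Hoxc8 (-1.24). Without B6 adenoma 1, 2 members remained, Hoxa9 at 2.55 (adjusted p = 0.00482, the highest of 12 alternatives) and Hoxa3 at 1.92. Without B6 adenoma 3, 9 members were called.

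In C5F1, 20.5% of all genes were called, 10.9% higher, and Hoxa9 was the only member called (log2 2.01, edgeR adjusted p = 0.018). That call was lost without C5F1 adenoma 2 (log2 1.28, adjusted p = 0.115, the highest of 12 alternatives) and without C5F1 Min mucosa 2 or 3. In C5, 0 of 16 members were called by edgeR, 1 had an unadjusted p under 0.05 and DESeq2 called 0, where 2.77% of all genes were called. Hoxa3 had the largest positive estimate in C5, 1.16 (adjusted p = 0.221), and Hoxb9 the largest negative one, -2.08. In B6xPWD, 0 members were called by edgeR, 1 had an unadjusted p under 0.05 and DESeq2 called 0, against 16.4% of all genes. Hoxa9 stood at 1.65 there (adjusted p = 0.0857) and was called at 1.69 when same-numbered libraries were paired (adjusted p = 0.029, the lowest of 12 alternatives), where 24.3% of genes were called.

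**Figure D4:**
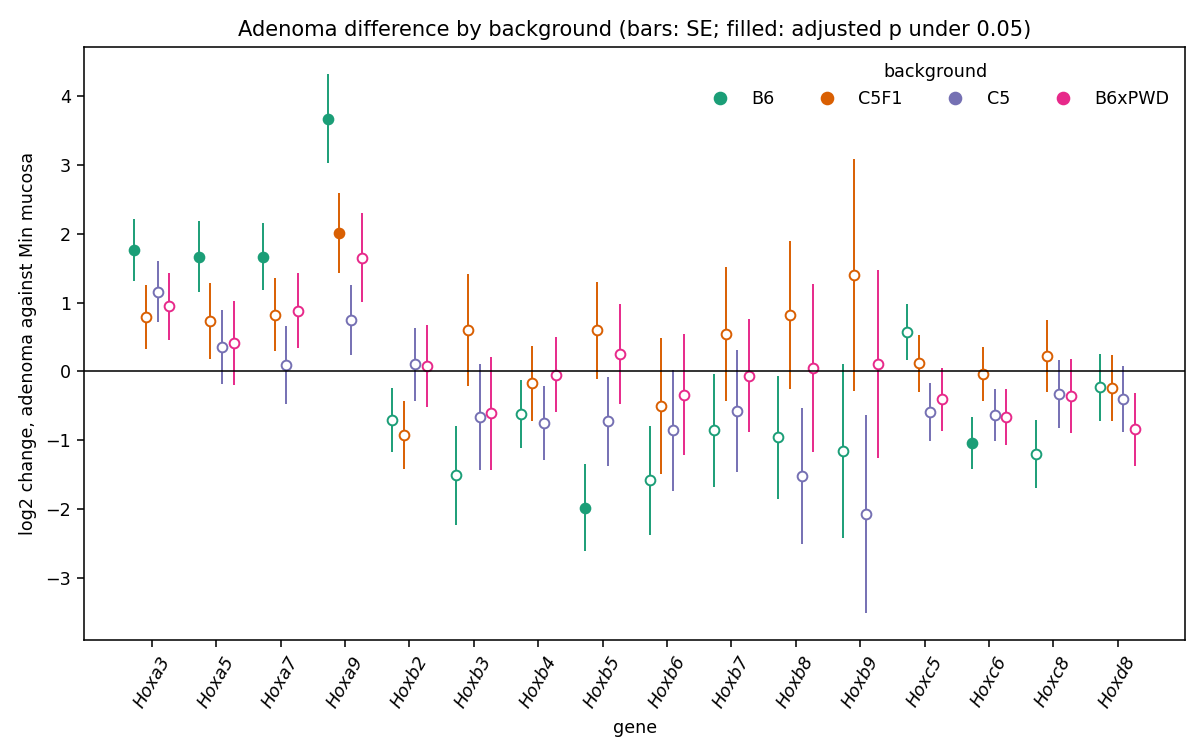
Log2 change of adenoma against Min mucosa (vertical axis) for the 16 tested Hox genes (horizontal axis) in each of 4 backgrounds. Points are edgeR estimates, bars are SE, and filled points have an adjusted p under 0.05. All 4 Hoxa genes are positive in every background, and the filled points are Hoxa3, Hoxa5, Hoxa7, Hoxa9, Hoxb5 and Hoxc6 in B6 and Hoxa9 in C5F1.

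The difference between backgrounds in this adenoma change was tested directly and was not called for any of 16 members by edgeR or DESeq2. The Hoxa9 change was estimated as smaller than in B6 for C5F1, C5 and B6xPWD (differences of log2 changes of -1.67, -2.93 and -2.02), with edgeR adjusted p = 1, 0.884 and 0.94. Unadjusted p-values under 0.05 were found for 1 member in C5F1, 0 in C5 and 1 in B6xPWD. Over all genes, 0%, 0.11% and 0.63% were called. These comparisons all use the same 6 B6 libraries.

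Adenomas were also compared between backgrounds, again with the B6 libraries shared. Hoxa9 was lower than in B6 adenomas in C5 (log2 -3.40 ± 0.65, edgeR adjusted p = 0.00131) and in B6xPWD (-2.47, adjusted p = 0.0115). It passed the filter on low counts only through adenoma libraries, and the B6 adenomas held most of its counts. Both p-values therefore describe a member picked by its high group. Hoxa7 was lower in C5 (-1.94 ± 0.50, edgeR adjusted p = 0.00775) and B6xPWD (-2.25, 0.0039), and Hoxa5 in B6xPWD (-2.12, 0.00942). Hoxa7 also passed the filter only through adenoma libraries, mainly those of B6, so its p-values and the counts of calls share this limit. Calls numbered 2 of 16 in C5 and 3 of 16 in B6xPWD, all lower, where 17.8% and 16.9% of all genes were called, 8.26% and 6.97% lower. In C5F1, 0 of 16 were called by edgeR or DESeq2, 4 had an unadjusted p under 0.05 and 0.483% of all genes were called. Without B6 adenoma 1 the B6xPWD difference in Hoxa9 was -1.42 (adjusted p = 0.15, the highest of 11 alternatives) and was not called. Leaving out B6xPWD adenoma 1 or B6xPWD adenoma 2 also ended that call.

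Hoxa10, next to Hoxa9 in the cluster (chr6:52231197-52240854), was too low to test and was looked at after its values were seen. All of its 51 tissue counts were in the 3 B6 adenomas, with 48, 1 and 2 counts. Pooled over the group this was at least 9.18-fold above B6 Min mucosa, where it had 0 counts, and it rests on B6 adenoma 1.

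Values of other cell types and gut regions moved with these differences, and their part in the Hoxa result was not tested. From Min mucosa to adenoma, over the 4 backgrounds and beside the 23.7% higher and 21.5% lower of all genes, 9 of 10 smooth muscle markers fell, 4 of 12 fibroblast markers rose and 1 fell, 2 of 6 distal ileum markers fell and 1 of 5 tested proximal small intestine markers rose. 1 of 8 epithelial markers rose and 2 fell, 1 of 6 endothelial markers rose, and 1 of 7 tested markers of enteric nerve and glia rose and 3 fell. In B6 the fibroblast markers summed to 826 to 1023 CPM in adenoma, against 435 to 638 CPM in Min mucosa. The smooth muscle markers summed to 479 to 625 CPM and 1263 to 2669 CPM in the same order. The B6 Min mucosa libraries also had almost no Gata4 (0, 0.155 and 0.969 CPM), which encodes a GATA factor active in the proximal part of the small intestine, while the B6 adenomas had 29.1, 25.6 and 1.21 CPM. Wild-type mucosa spanned 0.490 to 148 CPM of Gata4 with 0 Hoxa9 counts in all 15 libraries.

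Genes that act on or with the Hox clusters were called in adenoma at shares to be read beside those of all genes, 23.7% higher and 21.5% lower. Among 9 cofactor genes, 8 were tested, with Meis2 (log2 0.92) and Pbx3 (0.61) higher and Meis1 (-0.82) lower. Both tested genes of the caudal and ParaHox list fell, Cdx1 by 0.42 and Cdx2 by 0.47 on the log2 scale. Of 17 Polycomb genes, 7 rose, among them Phc1 (0.70) and Phc2 (0.45), and 3 fell, among them Jarid2 (-0.47) and Ezh1 (-0.44). Of 8 trithorax genes, 2 rose (Men1 0.32 and Wdr5 0.27) and 1, the demethylase gene Kdm6a (-0.28), fell. Of 10 tested genes of retinoic acid signalling and other upstream signals (with the ligand genes Gdf11 and Fgf9), 3 rose and 3 fell, with the receptor genes Rarb at 1.99 and Rarg at 1.01, and Rxra at -0.72 and the synthesis gene Aldh1a1 at -1.57. Gdf11 (1.26) was the other that rose and Fgf9 (-1.02) the other that fell. The median log2 changes of the 5 lists in this order were 0.11, -0.44, 0.22, 0.18 and -0.05, beside 0.01 over all genes. Of 15 listed noncoding RNA genes of the clusters, 9 were in the table and 0 had enough counts to be tested.

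The Hoxb genes varied widely between libraries of 1 group. Hoxb9 (chr11:96271457-96276595, plus strand) had an SD above its mean in 5 of 13 tissue groups, as did Hoxb7 and Hoxb8, while Hoxc8 and Hoxa5 did so in 0 of 13. In B6, Hoxb9 was at 52.0, 1.85 and 0.627 CPM in wild-type mucosa, 64.8, 57.1 and 39.3 CPM in Min mucosa and 6.20, 5.55 and 63.5 CPM in adenoma. In C5F1 it was at 31.4, 31.7 and 20.7 CPM in wild-type mucosa, 1.69, 2.84 and 0.695 CPM in Min mucosa and 12.5, 4.77 and 0.927 CPM in adenoma. Libraries with much Hoxb9 thus stood beside libraries with little in B6 wild-type mucosa and B6 adenoma, while B6 Min mucosa and C5F1 wild-type mucosa were high throughout and C5F1 Min mucosa was low throughout.

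In C5, Hoxb9 was at 0.572, 3.40 and 54.1 CPM in wild-type mucosa, 3.57, 41.9 and 0.700 CPM in Min mucosa and 2.89, 6.32 and 1.17 CPM in adenoma. In B6xPWD it was at 1.85, 33.4 and 64.7 CPM in wild-type mucosa, 33.5, 0.198 and 0 CPM in Min mucosa and 20.2, 0.214 and 19.1 CPM in adenoma. In PWD wild-type mucosa all 3 libraries had 0 counts, which allows up to 0.236 CPM over the group.

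High and low Hoxb9 libraries were also set apart by Gata4. At a level of 10 CPM, chosen after the values were seen, all 13 tissue libraries with Gata4 below it had Hoxb9 at 20.2 to 64.8 CPM. Of the 26 with Gata4 at or above it, 23 had Hoxb9 below 10 CPM, and 3 were above it on both. No library was below 10 CPM on both. Gata4 was 1 member of the proximal small intestine list, and the other members did not all follow it. In B6 wild-type mucosa 1 to 3, Gata4 had 8, 401 and 138 counts. Fabp1 ran alongside it there (17, 682 and 331 counts) and Slc40a1 ran opposite (264, 33 and 16 counts). In B6 adenoma 3, Onecut2 had 448 counts and Gata4 had 5. The labels do not give the region of the intestine from which each sample came, and whether the samples differ in region was not tested. Libraries of 1 group fell on both sides, for example C5 wild-type mucosa, with Gata4 at 78.3, 42.6 and 0.490 CPM.

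**Figure D5:**
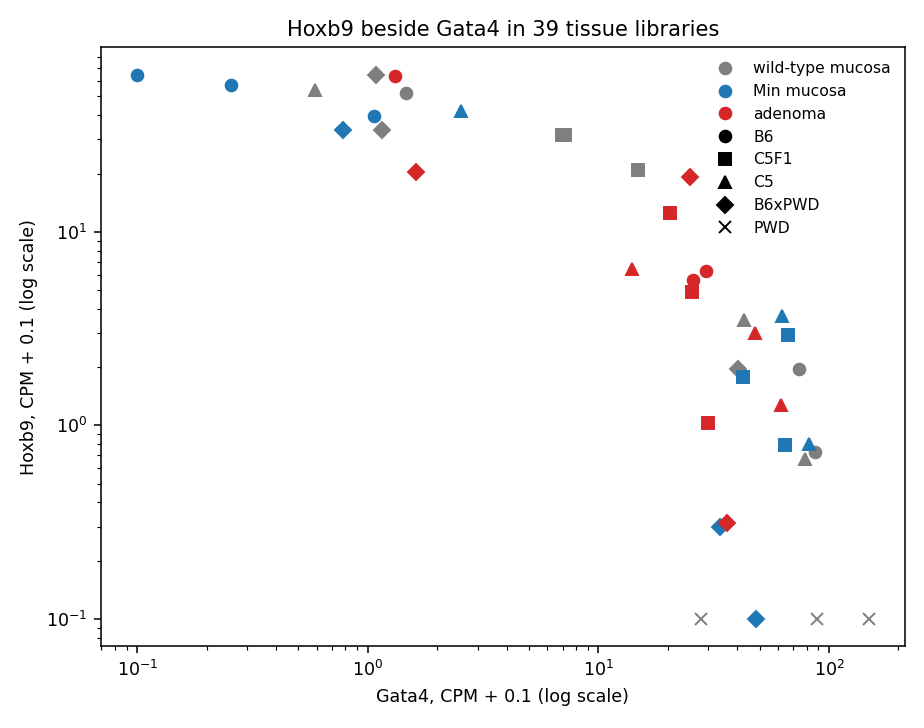
Hoxb9 (vertical axis) against Gata4 (horizontal axis) in the 39 tissue libraries, both as CPM + 0.1 on log scales. Colours mark wild-type mucosa, Min mucosa and adenoma, and symbols mark the background. The 13 libraries with Gata4 below 10 CPM hold 20.2 to 64.8 CPM of Hoxb9, and those with more Gata4 hold 0 to 20.7 CPM.

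No Hox gene was called between Min mucosa and wild-type mucosa. Averaged over 4 backgrounds, edgeR called 0 of 16 members, 0 had an unadjusted p under 0.05, DESeq2 called 0, and 0.00732% of all genes were called. All 8 Hoxb estimates were negative, and the median log2 change was -0.28 over the members and 0.00 over all genes. Hoxb9 had a log2 change of -1.05 ± 0.67 (SE; edgeR adjusted p = 0.774), so a 2.07-fold difference stayed within its spread between libraries.

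Between backgrounds, wild-type mucosa of C5F1, C5, B6xPWD and PWD was compared with that of B6, which all 4 comparisons share. edgeR called 0 of 16 members in each, where 0.022%, 1.47%, 9.6% and 18.7% of all genes were called. Unadjusted p-values under 0.05 were found for 0, 0, 0 and 3 members, and DESeq2 called 0, 0, 0 and 1. The DESeq2 call was Hoxb9 in PWD (log2 -8.61, adjusted p = 3.9e-04). With edgeR it was not called (fitted log2 -5.87, adjusted p = 0.0508), it was called without the filter on low counts (0.0403), without B6 wild type 2 (0.0434) and without B6 wild type 3 (0.036), and over 11 alternatives the adjusted p ran from 0.000387 to 0.567. The highest came on leaving out B6 wild type 1, the library with 52.0 CPM, where the log2 change was -2.43. By pooled counts, Hoxb9 was at least 104-fold higher in B6 than in PWD wild-type mucosa, and at least 157-fold higher in B6xPWD, with 111-fold for C5F1 and 110-fold for C5 between them. Of the 315 B6 counts, 304 were in B6 wild type 1, and of the 351 C5 counts, 331 were in C5 wild type 3. The C5F1 libraries held 67, 218 and 176 counts and those of B6xPWD 5, 158 and 263. The 3 PWD libraries had Gata4 at 88.9, 148 and 27.8 CPM. The B6 libraries had Gata4 at 1.37, 74.2 and 86.5 CPM beside Hoxb9 at 52.0, 1.85 and 0.627 CPM. The part of this in the Hoxb9 difference was not tested. Other members were present in PWD, with Hoxc8 at 1.98, 0.647 and 5.70 CPM.

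In Min mucosa, Hoxb5 was called lower than in B6 in C5F1 and B6xPWD, and Hoxb4 and Hoxb6 in B6xPWD. Hoxb5 was at 9.75, 11.4 and 3.29 CPM in B6 Min mucosa, 1.69, 0.370 and 0.834 CPM in C5F1, and 1.64, 0.793 and 0.260 CPM in B6xPWD. It did not overlap with B6 in either, whereas in C5, at 1.11, 4.61 and 1.40 CPM, it did. It was lower than B6 in C5F1 (log2 -3.00, edgeR adjusted p = 0.0297), the only 1 of 16 members called where 1.87% of all genes were, 0.871% lower. That call was lost on leaving out B6 Min mucosa 1 or 2 or any of the 3 C5F1 libraries, with the adjusted p up to 0.166. In B6xPWD, Hoxb4 (-1.71, edgeR adjusted p = 0.0264), Hoxb5 (-2.67, 0.00697) and Hoxb6 (-2.55, 0.0352) were lower, 3 of 16 members, where 15.9% of all genes were called and 7.21% were lower. Leaving out 1 of 6 libraries ended the Hoxb4 and Hoxb6 calls in 4 of 6 cases each and the Hoxb5 call in 0 of 6. In C5, edgeR and DESeq2 called 0 of 16, 5 had an unadjusted p under 0.05 and 1.1% of all genes were called. All 3 B6 Min mucosa libraries had Gata4 below 1 CPM, against 42.2, 66.3 and 64.6 CPM in C5F1, 62.7, 2.44 and 82.1 CPM in C5 and 0.684, 33.7 and 48.3 CPM in B6xPWD. The part of this difference in the Hoxb result was not tested.

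Organoids had few Hox reads. The 39 genes together had 19 to 162 counts per library, and 7 to 21 members had any count. Against Min mucosa of the same 2 backgrounds, control organoids were lower in 18 of 20 tested members, where 73.8% of all 15202 genes tested were called and 41% were lower. The median log2 change was -2.52 over the members (-2.55 with the 3 members at 0 counts in control organoids set at their limits) and -0.14 over all genes. Only 3 members had enough counts to be tested within organoids, so most of the 20 entered the joint test through tissue libraries. The count of 18, this median and the p-values below therefore describe members picked largely by their high group. Hoxb9 had 1354 counts in 6 Min mucosa libraries and 9 in 4 control organoid libraries (log2 -5.92 ± 1.36, edgeR adjusted p = 2.1e-04). Hoxb6 had 314 and 0 counts, at least 137-fold lower in organoids. Hoxc8 had 245 and 2 counts, a ratio of 160 (95% counting interval 43.9 to 1330). Hoxa7 had 42 and 14 counts, and its log2 change of -1.36 (edgeR adjusted p = 0.00481) was among the smaller ones.

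Hoxa9, with 5 counts in the Min mucosa libraries and 6 in the control organoids, and Hoxc13, with none in either, were not called. Culture, cell makeup, gut-region markers and library series differ together between organoids and tissue and cannot be told apart. The summed smooth muscle markers were 4.88 to 9.07 CPM in organoids and 143 to 2669 CPM in Min mucosa, and the fibroblast markers 6.41 to 22.4 CPM and 284 to 724 CPM. All 10 smooth muscle and all 12 fibroblast markers were lower in organoids, with the smooth muscle gene Actg2 at no more than 0.196 CPM and the fibroblast collagen gene Col1a1 at no more than 0.504 CPM. Gut-region markers differed too: the proximal small intestine list summed to 803 to 3079 CPM in organoids, against 47.4 to 80.02 CPM in B6 and 75.6 to 134 CPM in C5 Min mucosa. The distal ileum list summed to 87.2 to 967 CPM in organoids, against 2764 to 4209 CPM in B6 and 1954 to 3465 CPM in C5 Min mucosa. Gata4 was present in all 8 organoid libraries, at up to 60.3 CPM.

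Hoxd9, a posterior gene (chr2:74697727-74700208, plus strand), was detected in all 4 AZA organoid libraries and in 0 of 4 controls. It had 5 and 10 counts in the B6 AZA organoids, 1 and 16 in those of C5, and 0 in all 4 controls. As levels these were 0.498, 0.976, 0.0830 and 2.02 CPM. Over both backgrounds this was at least 13-fold higher than in the controls, taking 3 counts over the 4 control libraries as the limit. The fitted log2 change was 2.59 ± 0.90 (SE; edgeR adjusted p = 0.0471), where 28.5% of all 13395 genes were called, 15% higher. It passed the filter on low counts only through the AZA libraries, so this p describes a member picked by its high group. The call was lost in 7 of 8 fits that left out a library and when the culture number was fitted as a block (log2 2.28, adjusted p = 0.181). Over 14 alternatives the adjusted p ran from 0.00907 to 0.27. In tissue, Hoxd9 had 26 counts in 16 libraries.

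The other 2 members tested in organoids were not called. Hoxc13, a posterior gene of hair and nail, had 11 and 3 counts in the B6 AZA organoids, 0 and 8 in those of C5, and 0 in the controls and in all 39 tissue libraries (log2 2.12, edgeR adjusted p = 0.0915). Hoxb9 had 11, 0, 3 and 19 counts with AZA and 5, 0, 4 and 0 without (log2 1.48, edgeR adjusted p = 0.406). Hoxd8, too low for the test and picked after its values were seen, had 4, 5, 10 and 3 counts with AZA and 0, 0, 0 and 1 without, a ratio of pooled counts of 26.9 (95% counting interval 4.35 to 1110). Hoxa7, also picked after its values were seen, had 0 counts in all 4 AZA libraries and 0, 3, 1 and 10 in the controls. Between C5 and B6 control organoids, edgeR and DESeq2 called 0 of 3 members, 0 had an unadjusted p under 0.05 and 0.209% of all genes were called.

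Among the regulators, AZA was followed by a fall in 7 of 17 Polycomb genes and a rise in 2, beside 28.5% of all genes called and 15% higher, with Rbbp7 at -1.40 and Ezh2, the histone methyltransferase gene, at -0.84 on the log2 scale. Of 6 tested cofactor genes Meis2 rose (1.26), of 3 tested genes of the caudal and ParaHox list (Cdx1, Cdx2 and Pdx1) Cdx2 fell (-1.09), and of 7 tested genes of the list of upstream signals Aldh1a1 rose (2.65). Their part in the Hoxd9 counts was not tested.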

How the data were processed

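RNA was ribosome-depleted and sequenced as single-end Illumina reads, per the labels' protocols. The values are the raw counts per gene that the authors deposited, made with BWA and HTSeq on mm10, per the submitters' processing notes; versions, annotation and strand setting were not given in the sources used here. Each column was matched to its sample by title, and 0 columns of per-sample values were left unused. The 5 rows of unassigned reads (40.7% to 53.9% of tissue reads, 46.4% to 63.5% of organoid reads) were left out, and Rn45s was kept.

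Counts were fitted with edgeR 4.0.16 (R 4.3.3): TMM scaling, filterByExpr (minimum count 10, minimum total 15), the quasi-likelihood test with 1 mean per group, a prior count of 2 for fold changes, and Benjamini-Hochberg adjustment over all genes tested (13657 in tissue, 13395 in organoids, 15202 jointly) in each of 22 comparisons, with calls at 0.05. SE is the absolute log2 change over the square root of F. Same-numbered adenoma and Min mucosa libraries correlated in all 12 pairs (r 0.107 to 0.455), so paired values are given where they change a call. The code was tested on simulated data with 200 changed genes.

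A gene was called expressed at a group mean of 0.5 CPM or 10 counts in a library. Exon lengths, overlaps and coordinates are from RefSeq-linked GENCODE transcripts on GRCm38. Members were those of the name rule, and the values of 1 of them are not reported here. Values by library were given for members called in adenoma against Min mucosa, then for those called most often elsewhere, then for the highest of each cluster. Members and lists were chosen with earlier results of these data known. Alternatives were DESeq2 1.42.0, RLE scaling, no filter, Rn45s left out of totals, replicate blocks, the compared groups alone and each library left out.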

Additional observations from a re-analysis of the deposited data

How the results depend on the processing

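Counts of called members changed by over 1.5 times under these alternatives. Adenoma against Min mucosa over 4 backgrounds gave 5 calls, and 2 over the 3 backgrounds other than B6 (added after seeing the data). In B6 the replicate block, with same-numbered libraries paired, gave 11 in place of 6, and in B6xPWD 1 in place of 0. With the compared groups alone, C5F1 adenoma against Min mucosa gave 0 in place of 1, C5F1 against B6 Min mucosa 6 in place of 1, and against B6 adenoma C5F1 gave 2 in place of 0 and B6xPWD 1 in place of 3. DESeq2 gave 1 in place of 0 for PWD against B6 wild type and 4 in place of 2 for C5 against B6 adenoma. Without the filter on low counts, PWD gave 1 in place of 0 and C5F1 against B6 Min mucosa 2 in place of 1. The block by culture number gave 0 in place of 1 for AZA. Same-numbered organoids had r of -0.000293 (B6) and -0.0117 (C5). With 2 libraries per group each r rests on a single difference, so it cannot tell whether same-numbered organoids share a culture. The blocks changed no other count by that much.

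Leaving out 1 library gave 2 to 9 calls in B6 adenoma against Min mucosa, 0 to 1 in C5F1, 0 to 1 for PWD against B6 wild type, 0 to 2 and 1 to 7 for C5F1 and B6xPWD against B6 Min mucosa, 0 to 1, 1 to 3 and 1 to 4 for C5F1, C5 and B6xPWD against B6 adenoma, and 0 to 1 for AZA. The mean adenoma difference gave 4 to 6, and organoids against Min mucosa 17 to 19 (12 with the compared groups alone). Of 843 single-gene values under alternatives, 777 kept direction and call, 57 lost the call, 7 gained it and 2 reversed: the uncalled mean adenoma difference of Hoxb9 was 0.758 without B6xPWD Min mucosa 1 and 0.273 without C5 Min mucosa 2, from a lowest value of -0.939 without B6 adenoma 3. The cause of these changes was not tested. Depth limits the posterior Hoxa genes and all organoid members, most of which had under 10 counts per library.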

Other observations

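Evx1, a homeobox gene beside Hoxa13 at the end of the Hoxa cluster and no member by name, was looked at after its values were seen. All of its 39 tissue counts were in 9 of the 12 adenomas, and the 27 mucosa libraries had 0. Pooled, this was at least 20.8-fold higher in adenoma, taking 3 counts over the mucosa libraries as the limit. In organoids it had 7 counts, all in 1 AZA library. The gene row Mir196a-1, a microRNA of the Hoxb cluster, had 39 counts over 17 tissue libraries, which in libraries of long RNA do not measure the mature microRNA.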
